A study of Bos taurus with 8 samples.

Results

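Bovine blastocysts that had been taken apart were compared with blastocysts left whole, to see which transcripts separate the inner cell mass (ICM) and the trophectoderm (TE) from the embryo they were cut from. The comparison used 6 of the 8 samples of the series, chosen by their labels: 4 dissected samples, of which 2 were ICM and 2 were TE, and 2 samples of intact blastocysts. All 6 came from in vitro matured and fertilized oocytes cultured to day 9, and the remaining 2 samples were morulae of day 5, which entered the fit only to estimate the spread. ICM and TE were separated by hand with tungsten needles, and the study notes that the ICM samples still held some TE cells. Every sample pooled many embryos and was hybridized on its own two-colour array against 1 common pool of blastocyst RNA. Replicate 1 carried the Cy3 dye in every group and replicate 2 the Cy5 dye. The RNA was amplified before labelling, and both parts came from the same embryos. A note in the study's supplement equates the 2 blastocyst samples with 2 of the blastocyst pools, so the common pool may hold the RNA of both. In that case a blastocyst ratio close to 0, and opposite deviations of the 2 blastocysts from the pool, are built into the design. Dissection cannot be told apart from any other difference in handling between the parts and the whole embryos.

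The blastocyst is a hollow sphere. Its outer epithelium, the TE, is sealed by tight junctions, pumps fluid into the cavity and later contributes to the placenta, while the ICM gives rise to the epiblast, from which the embryo forms, and to the primitive endoderm, which lines the yolk sac. Cutting such an embryo opens the epithelium, and cells that are handled or wounded are known to raise immediate early genes, heat shock proteins and other stress transcripts within a short time. A transcript that merely differs between ICM and TE should lie between them in the whole embryo, whereas a transcript that moves with the procedure would lie on the same side of the whole embryo in both parts. In bulk samples a change in the number of cells of a type and a change in RNA per cell cannot be told apart.

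All values are log2 ratios of a sample over the blastocyst pool, so that 0 is the level of the pool and a difference of 1 is a 2-fold change. The array held 43653 gene probes, of which 27952 carried a gene symbol, and each of 12552 genes was represented by its brightest probe. Calls required at least a 2-fold difference and an adjusted p below 0.05 in limma (Benjamini-Hochberg over all gene probes). Over the 6 arrays the median intensity of the sample channel ran from 229.9 to 493 over a local background of 46 to 50.5, with 90.3% to 94.8% of gene probes above that background. The 2 blastocyst arrays correlated negatively with each other across probes, at r = -0.55, against 0.37 for the ICM pair and 0.52 for the TE pair. The negative sign is no measure of how well the blastocysts replicate if the pool holds both of them. The dye of the sample, which differs between the 2 replicates, was part of the model. With 2 samples a group, the p-values measure the spread between these samples only.

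The labels were first checked against genes of the epiblast and the TE. NANOG, which maintains pluripotency, stood at 0.99 and 1.59 in ICM samples, -2.37 and -2.50 in TE samples and 0.18 and -0.25 in intact blastocysts. SOX2, its partner in the epiblast, stood at 0.94 and 1.19 in ICM samples, -2.02 and -2.07 in TE samples and 0.16 and -0.29 in intact blastocysts. For both genes the blastocyst samples lay between the parts, with no overlap among the 3 groups. GATA3, a regulator of trophoblast genes, was at 0.31 and 0.48 in TE samples, -0.39 and -0.91 in ICM samples and 0.26 and -0.18 in intact blastocysts. NANOG was 13.2-fold higher in the ICM than in the TE (adjusted p = 0.0033) and GATA3 was 2.07-fold lower (adjusted p = 0.0496), on the sides that the labels name. GATA3 belongs to a list of 30 measured TE markers that were less clear as a set. Their median difference of TE from blastocyst was 0.05, with 20 above 0 and 10 below, and KRT7 among them ran the other way. Against the intact blastocyst none of the 3 genes was called in either part: for NANOG the ICM stood 2.50-fold above the whole embryo (adjusted p = 0.106) and the TE 5.29-fold below it (adjusted p = 0.0547).

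Few transcripts passed the threshold between the dissected parts and the whole embryo. When the average of both parts was set against the blastocyst, 6 genes were higher and none was lower, which is 0.0478% of the genes tested. At an unadjusted p under 0.05 there were 631 higher and 633 lower, together 10.1% of the genes. That share is above what this threshold gives on average with no difference, so few calls do not mean few differences. The 6 were SLC25A37, LANCL3, KIAA0586, MYADM, SAMD14 and IFIT2, all 3.03-fold to 7.46-fold higher. Between the parts, 196 genes (1.56%) were called, 167 higher in the ICM (1.33%) and 29 higher in the TE (0.231%). The median difference between dissected parts and blastocyst over all genes was 0.00 on the log2 scale, and the 95% interval of the difference lay inside a 2-fold change in either direction for 12307 of the genes.

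**Figure D1:**
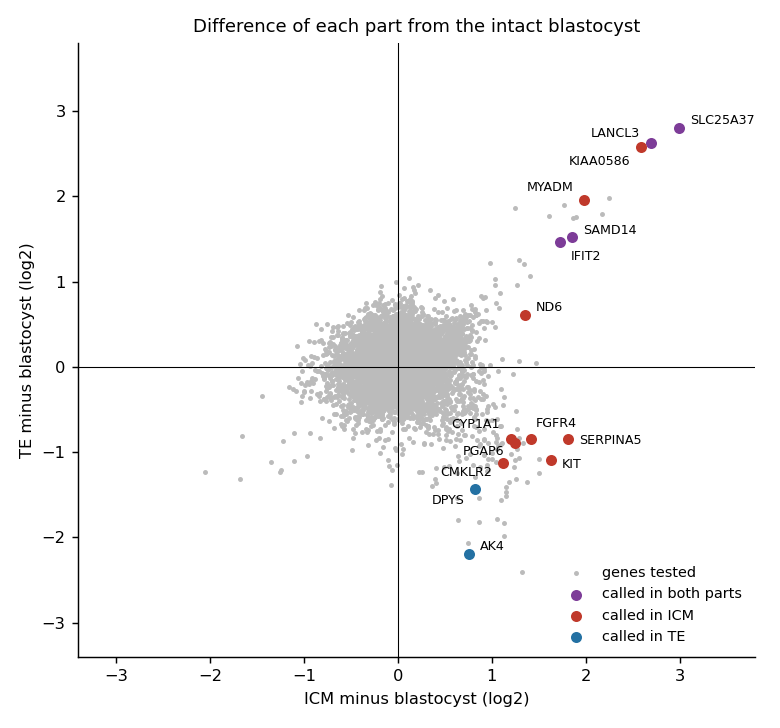
Difference of the ICM (x axis) and of the TE (y axis) from the intact blastocyst, in log2 units, for the 12552 genes tested. Coloured points are genes called in the ICM, in the TE or in both. The 6 named genes at the upper right are those called in the average of both parts, and at the lower right lie genes with ICM levels above and TE levels below the blastocyst. Both differences share the same 2 blastocyst samples, so values along the rising diagonal are not independent.

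SLC25A37 is mitoferrin-1, a carrier that brings iron into mitochondria. It stood at 0.01 and -0.20 in intact blastocysts, 2.90 and 2.90 in ICM samples and 2.77 and 2.64 in TE samples, and at -2.47 and -3.06 in morulae. All 4 dissected samples were far above both blastocyst samples. The difference was 2.90 ± 0.13 (SE) on the log2 scale, or 7.46-fold (adjusted p = 0.00882).

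LANCL3, a member of the lanthionine synthetase C-like family, was at 0.03 and -0.09 in intact blastocysts, 2.59 and 2.74 in ICM samples and 2.77 and 2.42 in TE samples. It was 6.32-fold higher in the dissected parts (2.66 ± 0.14, adjusted p = 0.0101). KIAA0586, the centrosomal protein TALPID3 that primary cilia need, was at -0.31 and 0.09 in intact blastocysts, 2.10 and 2.86 in ICM samples and 2.41 and 2.52 in TE samples. Its difference was 5.99-fold (2.58 ± 0.20, adjusted p = 0.034). Between ICM and TE neither gene was called, and the 95% intervals of that difference were -0.34 to 0.46 for LANCL3 and -0.56 to 0.59 for KIAA0586.

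MYADM, a membrane protein with MARVEL domains, was at 0.04 and -0.27 in intact blastocysts, 1.82 and 1.92 in ICM samples and 1.95 and 1.74 in TE samples, a difference of 3.92-fold (1.97 ± 0.16, adjusted p = 0.0413). SAMD14 was at 0.13 and -0.33 in intact blastocysts, 2.05 and 1.46 in ICM samples and 1.62 and 1.21 in TE samples, or 3.22-fold higher (1.69 ± 0.09, adjusted p = 0.0101). IFIT2, an interferon-induced protein that binds viral RNA, was at 0.08 and -0.23 in intact blastocysts, 1.77 and 1.55 in ICM samples and 1.54 and 1.26 in TE samples. It was 3.03-fold higher in the dissected parts (1.60 ± 0.08, adjusted p = 0.00882). IFI6 and IFITM2, other interferon-induced genes chosen after their values were seen, did not pass and had differences below 0, of -1.10 and -0.60, with the 2 blastocyst samples far apart. For MYADM, SAMD14 and IFIT2 the lowest dissected sample exceeded the highest blastocyst sample by more than the distance between the 2 blastocysts, although the SAMD14 spot rose above the background on only 1 of the 2 blastocyst arrays.

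These calls belonged to single probes. Of the genes with a called probe and 2 or more probes, 0 of 7 had a second call, against 54 of 214 (25.2%) between ICM and TE. Counted over all gene probes, 16 were called higher in the dissected parts and none lower, 0.0367% of the probes. Of the 16, 9 carried a gene name and 7 had none, with folds of 2.09 to 7.46. Beside the 6 genes above, the named probes were those of C1QL2, a secreted C1q-domain protein of neurons, DTX1, a ubiquitin ligase of the Notch pathway, and PTPRU, a receptor-type tyrosine phosphatase. They were 4.26-fold, 3.91-fold and 3.91-fold higher, but none was the brightest probe of its gene. MYADM and IFIT2 had only 1 probe each. For the other 7 genes there were 17 further probes, none of which was called, and their differences between dissected parts and blastocyst ran from -0.20 to 0.28. With the mean over all probes of a gene, the difference of SLC25A37 came to 0.62 and that of LANCL3 to 0.93, and neither was called. SLC25A37 had 4 such probes, PTPRU had 4, and SAMD14 had 1. Of the 17, 12 lay above the background on all 6 arrays. In 3 of the 7 genes a further probe was brighter than the called one, at mean log2 intensities of 9.68 against 9.58 for C1QL2, 9.07 against 7.78 for DTX1 and 9.99 against 9.73 for PTPRU. In the other 4 genes the called probe was the brightest. Which transcript the called probes bind was not tested, since their sequences were not used here.

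**Figure D2:**
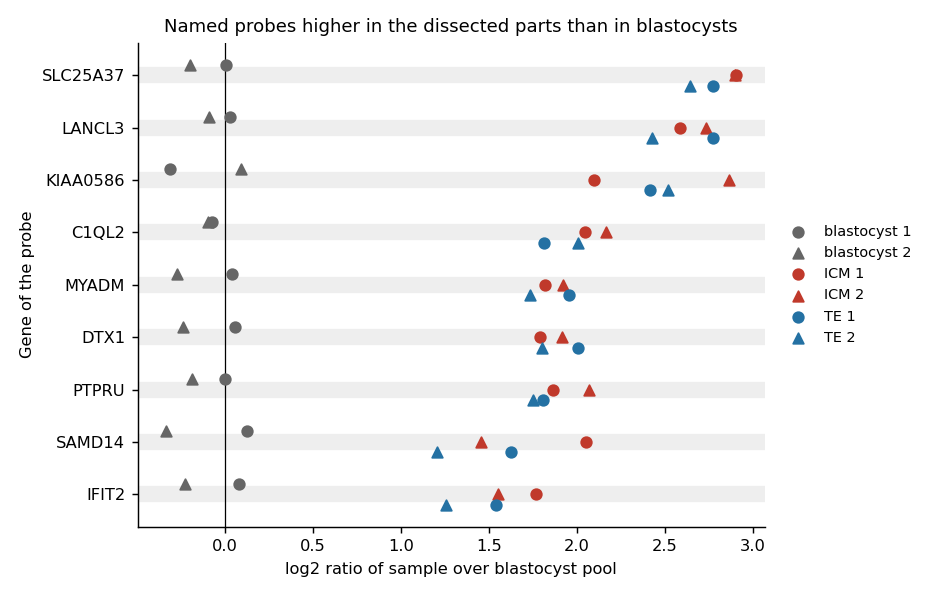
Log2 ratio of each sample over the blastocyst pool for the 9 named probes that were higher in the dissected parts than in intact blastocysts. Circles are replicate 1 and triangles replicate 2. The blastocysts lie between -0.33 and 0.13 at every probe shown, and the lowest dissected sample, TE replicate 2 for SAMD14, lies at 1.21.

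Of these 16 probes, 15 lay below the pool in both morula samples, none was called between ICM and TE, and none was saturated. All 4 dissected samples also lay above both blastocysts in genes that did not pass and were chosen after their values were seen. PTGFRN had a log2 difference of 1.83 (adjusted p = 0.0532), DHX16 1.81 (adjusted p = 0.106), PAPPA2 1.27 (adjusted p = 0.0874) and PAX2 1.27 (adjusted p = 0.0619). The permutation F2 test that the methods name, run here with 100 shuffles of the residuals, called 13 genes higher in the dissected parts, among them the 6 above and these 4, and none lower.

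Transcripts of the mitochondrial genome lay on the same side, and were looked at only after their values were seen. These are encoded on mitochondrial DNA and code for subunits of the respiratory chain. The array held 12 probes for 7 of the genes, and in 11 of the 12 all 4 dissected samples lay above both blastocysts, against 4.33% of all gene probes (3.88% lay below). ND6, a subunit of complex I, was at -0.21 and -0.05 in intact blastocysts, 1.31 and 1.14 in ICM samples and 0.52 and 0.44 in TE samples. It was called in the ICM, at 2.56-fold (adjusted p = 0.0434), but not in the TE, at 1.53-fold (adjusted p = 0.217). ATP6, a subunit of ATP synthase, was at 0.08 and -0.05 in intact blastocysts, 1.15 and 0.95 in ICM samples and 0.37 and 0.58 in TE samples (difference 0.75 in the parts, adjusted p = 0.231). COX1, the core of cytochrome c oxidase, spread widely within the parts by its brightest probe. That probe had 1.43 and 2.84 in ICM samples and 0.51 and 3.22 in TE samples against -0.16 and -0.05 in intact blastocysts. The other COX1 probe had 1.85 and 2.64 in ICM samples, 2.30 and 2.31 in TE samples and -0.40 and 0.57 in intact blastocysts. No mitochondrial probe was called in the mean of both parts, where the smallest adjusted p was 0.106, and 7 of the 12 probes were saturated on at least 1 array, which can compress their ratios.

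Nuclear genes of the respiratory chain had a median below 0. Of 73 measured genes of oxidative phosphorylation none was called in any of the 3 comparisons, and 66 had a difference below 0 in the dissected parts, with a median of -0.18 (ICM -0.07, TE -0.28). In 10 of them, or 13.7%, all 4 dissected samples lay below both blastocysts, against 4.88% of all genes. ATP5MC3, a ring subunit of ATP synthase and the brightest of the list, was at 0.61 and -0.11 in intact blastocysts, 0.34 and -0.18 in ICM samples and -0.17 and -0.57 in TE samples (difference -0.39, adjusted p = 0.446). Of 66 cytosolic ribosomal proteins none was called either, 58 had a difference below 0, 4 (6.06%) lay below both blastocysts in all dissected samples, and the median was -0.16 (ICM -0.04, TE -0.25). Their medians in replicates 1 and 2 were 0.32 and -0.30 in intact blastocysts. They were 0.20 and -0.35 in ICM samples and -0.003 and -0.52 in TE samples. The replicates of each group thus lay farther apart than the parts lay from the blastocyst. The brightest, RPL27A and RPL23 of the large subunit, differed by 0.28 and -0.02. The medians over all genes were 0.00 in each comparison, and 6237 of 12552 genes had a difference below 0 in the dissected parts.

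The ICM was then set against the blastocyst alone. Here 13 genes were higher and none was lower, 0.104% of those tested. At an unadjusted p under 0.05 there were 1070 higher and 970 lower, together 16.3%. The 13 comprised the 6 genes of both parts, ND6, and 6 genes whose TE samples lay below both blastocysts without passing the test there: SERPINA5, KIT, FGFR4, PGAP6, CYP1A1 and CMKLR2. SERPINA5, the protein C inhibitor of secreted serine proteases, was at 1.78 and 1.44 in ICM samples, 0.08 and -0.49 in intact blastocysts and -0.72 and -1.37 in TE samples. It was 3.52-fold higher in the ICM than in the blastocyst (1.82 ± 0.11, adjusted p = 0.0183). KIT, the receptor for stem cell factor, was at 1.63 and 1.61 in ICM samples, 0.06 and -0.09 in intact blastocysts and -1.06 and -1.17 in TE samples. The ICM exceeded the blastocyst 3.10-fold (1.63 ± 0.11, adjusted p = 0.0183). In both genes the 3 groups did not overlap and the whole embryo lay in the middle.

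FGFR4, a receptor for fibroblast growth factors, was 2.67-fold higher in the ICM than in the blastocyst (1.42 ± 0.09, adjusted p = 0.0183), with 1.68 and 1.28 in ICM samples against 0.35 and -0.22. In the TE its spots did not clear the uneven local background on either array, so no fold is given there. PGAP6, an enzyme that trims GPI anchors and stands on the array as TMEM8, was 2.38-fold higher in the ICM (adjusted p = 0.0434). CYP1A1, a monooxygenase induced through the aryl hydrocarbon receptor, was 2.30-fold higher (adjusted p = 0.0312), and CMKLR2, a receptor for chemerin listed as GPR1, was 2.18-fold higher (adjusted p = 0.0434). For these 3 genes the ICM samples lay between 0.86 and 1.37 and both blastocysts lay under 0.28. SERPINA5 and PGAP6 had 1 probe each. The other probes of KIT, FGFR4 and CYP1A1 had ICM differences of -0.06 to 0.17, and that of CMKLR2 had 0.39.

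Over single probes 36 were higher in the ICM than in the blastocyst and none was lower, or 0.0825%. They included probes of NID1, the basement membrane protein nidogen-1, at 3.14-fold, of JAM3, a junctional adhesion molecule, at 2.31-fold, of S1PR1, a receptor for sphingosine-1-phosphate, at 2.19-fold, and of LAPTM4B, a lysosomal membrane protein, at 2.12-fold. None of these was the brightest probe of its gene. The further probes of NID1 gave -0.11 to 1.50 on the log2 scale, and the brightest probe of S1PR1 gave 0.03. For LAPTM4B the 3 other probes gave 0.63 to 1.26, and for JAM3 the 2 others gave 0.58 and 0.90, all above 0.

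The TE against the blastocyst gave 4 genes that were higher and 2 that were lower, 0.0319% and 0.0159%. The 4 were SLC25A37, LANCL3, SAMD14 and IFIT2, at 6.97-fold, 6.18-fold, 2.87-fold and 2.77-fold. Since the same blastocysts served both comparisons, the presence of these 4 in both is not independent support. KIAA0586 (5.96-fold, adjusted p = 0.0501) and MYADM (3.89-fold, adjusted p = 0.0547) missed the threshold in the TE. The 2 lower genes were AK4, the mitochondrial adenylate kinase 4, and DPYS, the dihydropyrimidinase of pyrimidine breakdown.

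AK4 was at -1.91 and -2.21 in TE samples, 0.43 and -0.17 in intact blastocysts and 0.96 and 0.82 in ICM samples. The TE lay 4.57-fold below the blastocyst (-2.19 ± 0.15, adjusted p = 0.0272), and its second probe gave -0.24. DPYS was at -1.46 and -1.45 in TE samples, -0.07 and 0.04 in intact blastocysts and 0.64 and 0.97 in ICM samples, 2.70-fold below the blastocyst (-1.43 ± 0.11, adjusted p = 0.0366). Its second probe gave -1.37, close to the first. Among single probes 17 (0.0389%) were called in the TE, 12 higher (0.0275%) and 5 lower (0.0115%), against 450 higher (1.03%) and 71 lower (0.163%) between ICM and TE. LAPTM4B (2.25-fold) and TGM2, a protein-crosslinking transglutaminase (2.35-fold), were among the lower ones, and the probe of LAPTM4B was the only one called on opposite sides of the blastocyst in the 2 parts.

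**Figure D3:**
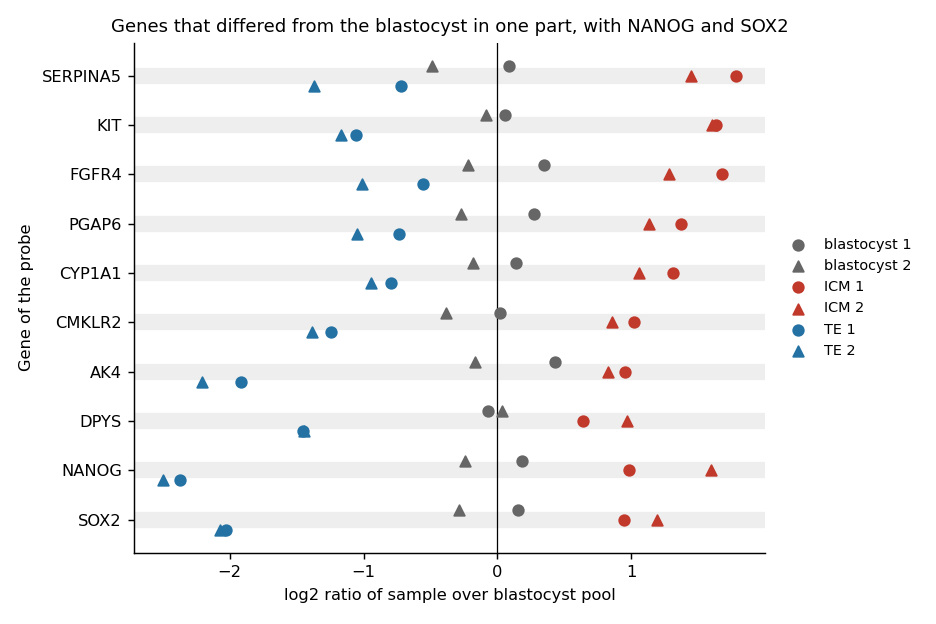
Log2 ratio over the blastocyst pool in each of the 6 samples for the 8 genes called against the blastocyst in 1 part and called between ICM and TE, with NANOG and SOX2 below them. Circles are replicate 1 and triangles replicate 2, and the TE spots of FGFR4 were not above background. In every gene shown both ICM samples lie above both TE samples, and the blastocysts lie between them.

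At the gene level 4 genes were called on the same side of the blastocyst in both parts and none on opposite sides. The F2 test called 13 on the same side, all of them higher in the parts, and 21 on opposite sides, NANOG, SOX2, KIT and CMKLR2 among them. It called 76 genes between ICM and blastocyst and 59 between TE and blastocyst, against 13 and 6 by limma. The 76 were not all higher in the ICM: they included GCA, which was lower there. GCA was also called in the ICM when only probes in the upper 60% of intensity were kept. The 6 genes of the mean of both parts and the 13 and 6 genes of each part were all among the calls of the F2 test.

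Where the whole embryo lay between its parts was described without a test, over the 196 genes called between ICM and TE. On the linear scale 0 stands for the level of the TE and 1 for that of the ICM. The median position of the blastocyst was 0.358, with quartiles of 0.271 and 0.453, and 195 of the 196 genes lay between 0 and 1. The exception was GCA, a calcium-binding protein, which was at 0.41 and 0.56 in intact blastocysts, -0.13 and 0.42 in TE samples and -1.24 and -0.69 in ICM samples. Genes higher in the ICM had a median position of 0.337, nearer to the TE in 144 of 167, and genes higher in the TE had one of 0.475, nearer to the TE in 15 of 29. The median was 0.461 from the arrays of replicate 1 and 0.254 from those of replicate 2, an SD of 0.146 (n = 2). Over all genes the blastocyst mean lay between the parts in 43.2%, above both in 28.8% and below both in 28.0%.

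Genes known to answer to handling, wounding or stress were then examined as lists. Among 37 measured immediate early and growth factor response genes none was called in the dissected parts, the ICM or the TE. Their median difference in the dissected parts was 0.04, against 0.00 over all genes, and for 36 of the 37 the 95% interval excluded a 2-fold change in either direction, GEM being the exception. In 4 of the 37, or 10.8%, all 4 dissected samples lay above both blastocysts, against 4.76% of all genes, and in none below. FOS, a subunit of the AP-1 transcription factor, was at -0.18 and 0.03 in intact blastocysts, 0.13 and -0.45 in ICM samples and 0.29 and 0.34 in TE samples (difference 0.15, interval -0.26 to 0.56). EGR1, a zinc finger factor of the same early response, differed by 0.04 (interval -0.22 to 0.31). MCL1, an inhibitor of apoptosis, and NR4A1, a nuclear receptor, were the brightest members and differed by -0.34 and 0.19. KLF4, a Krüppel-like factor, lay above both blastocysts in all 4 dissected samples, with 0.48 and 0.80 in ICM samples and 0.36 and 0.59 in TE samples against -0.02 and -0.05, but did not pass (0.59, adjusted p = 0.323). GEM, FOS, EGR1 and KLF4 were chosen after their values were seen.

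Heat shock proteins and their co-chaperones, which refold damaged proteins, gave no call among 31 genes. The median in the dissected parts was -0.11, 23 of 31 differences were below 0, and the interval excluded a 2-fold change for 28. All 4 dissected samples lay below both blastocysts in 4 genes, or 12.9%, against 4.88% of all genes, and above them in none. HSPA8, the constitutive HSP70, was at -0.16 and -0.20 in intact blastocysts, 0.03 and -0.48 in ICM samples and -0.09 and -0.46 in TE samples (difference -0.07, interval -0.38 to 0.25). HSP90AA1, the inducible HSP90, differed by -0.12 (interval -0.55 to 0.31). The unfolded protein and amino acid stress response held no call among 33 genes, with a median of 0.07. In all dissected samples 4 of them (12.1%) lay above both blastocysts and 1 (3.03%) below. Over all genes these shares were 4.76% and 4.88%. CANX, a chaperone of the endoplasmic reticulum, differed by 0.27 (adjusted p = 0.629) and PDIA6, a disulphide isomerase, by 0.25 (adjusted p = 0.768).

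No member was called among 28 genes of the oxidative stress and metal response, 24 of the p53 response and apoptosis and 25 of the NF-kappaB and cytokine response, and their medians in the dissected parts were -0.07, -0.05 and 0.01. Genes with all dissected samples above both blastocysts numbered 0, 1 and 1 in these lists. Those with all below numbered 1, 0 and 3, the last being 12.0% of its list. Over all genes 4.76% lay above and 4.88% below. TXN, the redox protein thioredoxin, differed by -0.35, and PGD, an enzyme that makes NADPH, by 0.10. APAF1, which assembles the apoptosome, differed by 0.69 (adjusted p = 0.594), and the cytokine IL1A by 0.23. Of 33 genes of the hypoxia response and glycolysis 1 was called, AK4, lower in the TE. The glucose transporter SLC2A3 and the glycolytic enzyme PGAM1, the brightest members that did not pass, differed by 0.27 and -0.12 in the dissected parts. LDHA, lactate dehydrogenase A, was at -0.76 and -0.55 in ICM samples, 0.06 and 0.15 in TE samples and -0.02 and 0.24 in intact blastocysts, and did not pass in the ICM (-0.77, adjusted p = 0.0653). It was chosen after its values were seen.

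Genes of the epithelium gave no call either. Among 39 genes of epithelial junctions the median was 0.06, and all 4 dissected samples lay above both blastocysts in 6, or 15.4%, against 4.76% of all genes. EPCAM, the epithelial adhesion molecule and the brightest of them, differed by 0.14 (interval -0.20 to 0.47). CLDN7, a claudin of tight junctions chosen after its values were seen, differed by 0.53 (adjusted p = 0.566). The 41 ion pumps, channels and aquaporins had a median of 0.00, with ATP1B3, a subunit of the sodium pump, at 0.09 (interval -0.21 to 0.40). The 44 genes of the actin cytoskeleton and of YAP and SRF targets had a median of -0.07, with ACTG1, a cytoplasmic actin, at -0.10, and the 47 genes of the basement membrane and matrix one of 0.04. None of these lists held a called gene.

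**Figure D4:**
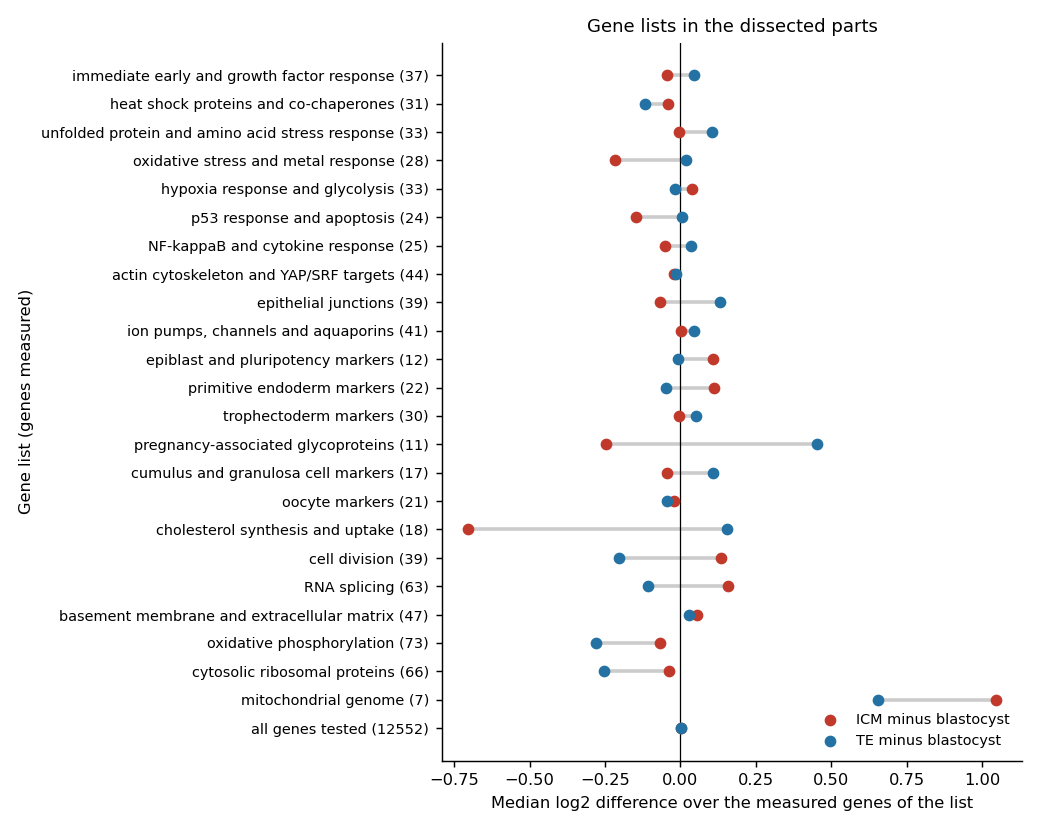
Median log2 difference from the blastocyst over the measured genes of each list, for the ICM and the TE, with the number of genes in brackets. The stress, junction and cytoskeleton lists lie between -0.22 and 0.13. Cholesterol genes in the ICM (-0.70), pregnancy-associated glycoproteins in the TE (0.45) and mitochondrial genome transcripts in both parts (1.05 and 0.65) lie farthest from 0.

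Some lists had medians of opposite sign in the parts, with no gene called against the blastocyst. Cholesterol synthesis and uptake had a median of -0.70 in the ICM, where 17 of 18 genes were below the blastocyst, and of 0.15 in the TE, where 16 of 18 were above it. MSMO1 and CYP51A1, enzymes of sterol synthesis, differed by -0.76 and -0.64 in ICM samples and by 0.18 and 0.38 in TE samples. Pregnancy-associated glycoproteins, secreted by trophoblast, had a median of -0.25 in the ICM and 0.45 in the TE over 11 genes. PAG2, one of them, was at 0.67 and 0.78 in TE samples, -0.58 and -0.14 in ICM samples and -0.18 and 0.14 in intact blastocysts. In 7 of 39 cell division genes, or 17.9%, all 4 dissected samples lay below both blastocysts, and in 1 (2.56%) above. Over all genes these shares were 4.88% below and 4.76% above. Cell division genes had medians of 0.13 and -0.20 and RNA splicing genes of 0.16 and -0.11, in ICM and TE respectively. SRSF5, a splicing factor chosen after its values were seen, was above both blastocysts in all 4 dissected samples (1.69-fold, adjusted p = 0.274).

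Among the markers of cell types, none of 12 epiblast, 22 primitive endoderm, 30 TE, 17 cumulus and granulosa and 21 oocyte genes was called in any of the 3 comparisons. All 4 dissected samples lay above both blastocysts in 3 primitive endoderm genes (13.6%) and below both in 1. For the oocyte genes they lay below both in 3 (14.3%) and above in 0. Over all genes the shares were 4.76% above and 4.88% below. ZIC2 and PRDM14, transcriptional regulators of the epiblast, differed by 1.05 and 0.68 in ICM samples and by -1.12 and -0.66 in TE samples. Of the primitive endoderm list NID1, by its brightest probe, and FLRT3, an adhesion molecule, stood 2.83-fold and 3.13-fold above the blastocyst in the ICM without passing (adjusted p = 0.0616 and 0.0806), whereas the regulators GATA4 and GATA6 differed by 0.17 and 0.11. The 30 TE markers had a median of 0.05 in the TE, with 20 differences above 0 and 10 below, and of -0.01 in the ICM. Among them KRT19, a keratin, AQP3, a water channel, and HSD3B1, a steroid dehydrogenase, differed by 0.29, 0.49 and 0.36 in TE samples. KRT7, also listed as a TE marker, ran the other way, at 0.91 in the ICM and -0.85 in the TE. In the average of the parts the oocyte regulators SOHLH2 and CPEB1 differed by -0.63 and -0.57, with adjusted p of 0.486 and 0.476.

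LUM, the matrix proteoglycan lumican, belonged to a set of genes that split the 2 blastocyst samples. In 19 genes the blastocysts differed by at least 2 log2 units, 15 of them higher in replicate 1, while the ICM pair differed by as much in 4 genes and the TE pair in 5. LUM was at 0.79 in blastocyst replicate 1 and -3.49 in replicate 2, at -3.50 and -2.57 in ICM samples and at -3.70 and -1.65 in TE samples. HTRA1, a secreted serine protease, was at 0.98 and -3.17 in intact blastocysts, and at -3.34, -2.95, -2.78 and -1.88 in the dissected samples. IGFBP7, an insulin-like growth factor binding protein, FMOD, the proteoglycan fibromodulin, and C1QTNF3, a secreted C1q-related protein, followed the same order. In these 5 genes blastocyst replicate 2 lay among or beside the dissected samples, while replicate 1 alone of the 6 samples stood above the pool. If the pool holds both blastocysts, replicate 1 is bound to stand above it where replicate 2 lies far below. Of the morulae, replicate 2 was at 0.45 for LUM and replicate 1 at -3.64. None was called in the dissected parts (adjusted p of 0.928 to 1.00). DCN, the related proteoglycan decorin, was at -0.20 and 0.25 in intact blastocysts and between -0.13 and 0.27 in the parts. LUM and DCN stood on the list of cumulus and granulosa cell markers, whose 17 genes had a median difference of 0.01 in the parts. The share of such cells in these values was not tested.

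**Figure D5:**
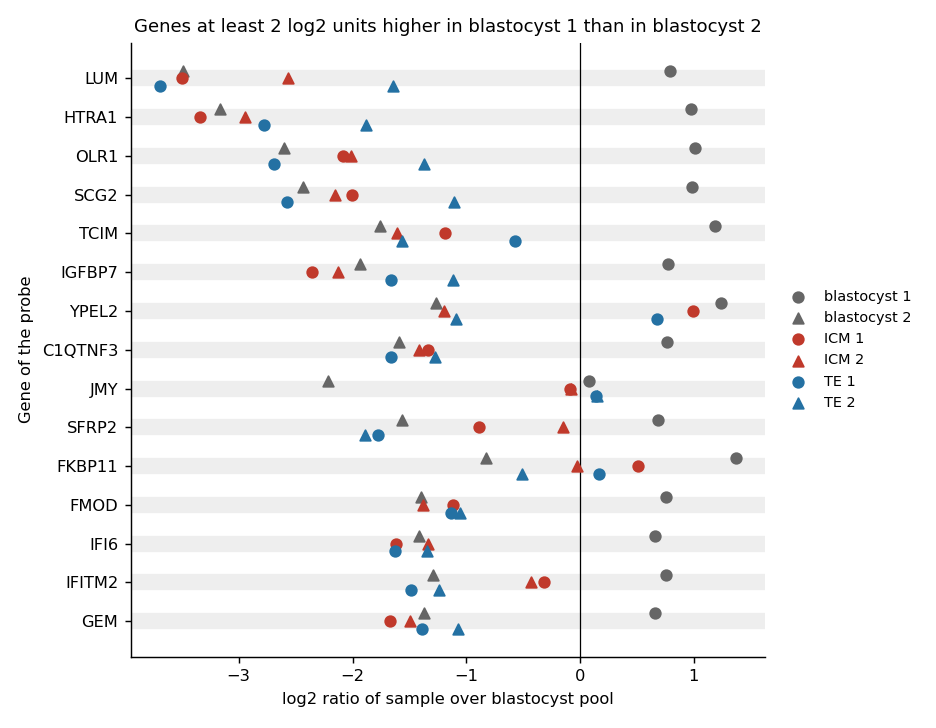
Log2 ratio over the blastocyst pool in each sample for the 15 genes that were at least 2 log2 units higher in blastocyst replicate 1 than in replicate 2, chosen after their values were seen. For LUM, HTRA1, OLR1, SCG2 and IGFBP7 blastocyst replicate 1 lies at 0.77 or higher and the other 5 samples lie at -1.11 or lower. YPEL2 instead follows the dye, with replicate 1 above 0 and replicate 2 below 0 in every group.

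Few calls were kept when an array was left out. Without any 1 of the 6 arrays fewer genes were called in each of the 3 comparisons, and some of those had not been called in the main fit. In the TE, AK4 alone of the genes called in the main fit was called again. The sizes moved little: without any 1 array the difference of SLC25A37 in the dissected parts was 2.82 to 2.97, that of LANCL3 was 2.54 to 2.78 and that of IFIT2 was 1.57 to 1.63. SLC25A37 and LANCL3 were still called in the dissected parts without ICM replicate 1, and AK4 in the TE without blastocyst replicate 2. Without blastocyst replicate 1, ICM replicate 2 or either TE replicate no gene was called against the blastocyst. Without blastocyst replicate 2 the only gene called in the dissected parts and in the ICM was TCF21, a transcription factor of mesoderm, which in blastocyst replicate 1 was at -3.39 and in the 5 other samples lay between -0.06 and 0.14.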

How the data were processed

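Mean spot intensity in both channels (Imagene extraction), as deposited by the authors, was neither normalized nor reduced by background. The RNA had been amplified before labelling. The authors also deposited log2 ratios of sample over pool, which the methods describe as loess-normalized and corrected for gene-specific dye bias. These correlated with the ratios of the intensities at 0.727 to 0.993 in the sample over pool direction, with column medians of -0.00228 to 0.0117 and the centring not stated, and served as an alternative.

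Each array was normalized by loess over its 43653 gene probes, leaving out 1567 control spots. Group means and a dye term were fitted to all 8 arrays (R 4.3.3, limma 3.58.1), with 3 residual and 3.17 prior degrees of freedom. In every group the dye equals the replicate number, so the dye term is also the replicate block. Replicate differences correlated across probes at 0.20 to 0.49 between groups, each over 0.1; dye and any other batch shared by equal numbers cannot be told apart. The methods take the most 3' probe of a gene; here the brightest probe stood for it. Of 12552 symbols, 107 were absent from the reference table of cattle genes. A spot was above background where it exceeded the local background mean by 2 standard deviations, and saturated at 65000. The fitting script was tested on simulated data. Figures were drawn in Python 3.11.15 with matplotlib 3.10.9.

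The samples compared, the gene lists and the comparisons were chosen with earlier results of these data known. Genes are named in the text where they were among the 10 largest called differences of a comparison and direction, were called in both parts, were among up to 4 called members or the 2 brightest members of a list that did not pass, or were markers of a cell type. Others are said to have been chosen after their values were seen. Alternatives covered background, normalization, source of values, dim probes, the replicate block, the arrays fitted, the test, the fold minimum, the probes of a gene and leaving out each array. Counting every probe, and requiring 2 called probes of a gene, were chosen after seeing the data. Some of the listed genes were not analysed here.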

Additional observations from a re-analysis of the deposited data

Results flagged for a closer look

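For 8 genes called against the blastocyst in only 1 of the parts, the difference between ICM and TE was itself past the threshold. The ICM exceeded the TE by 2.95 on the log2 scale for AK4, 2.73 for KIT, 2.66 for SERPINA5, 2.26 for CMKLR2, 2.25 for DPYS, 2.14 for PGAP6 and 2.05 for CYP1A1. For FGFR4, whose TE spots were not above background, the fitted value of 2.27 is no measured level difference. In the sample channel, with background included, its mean ICM signal was 4.47-fold its mean TE signal. The lowest signal above background lay under that TE signal, at 5.85 against 9.29 on the log2 scale, so it set no lower bound. The adjusted p ran from 0.00255 to 0.0027 (limma). In all 8 genes both blastocyst ratios lay between those of the ICM and TE samples, for FGFR4 with TE ratios from spots not above background. Groups of 2 samples are too small to look for outlying samples.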

How the results depend on the processing

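The main counts of called genes were 6 for the dissected parts, 13 for the ICM, 6 for the TE, 4 on the same side in both parts and 0 on opposite sides. They moved with several choices. Normexp background correction gave 2, 1, 0 and 0 for the first 4. Median centring gave 3 for the ICM, 2 for the TE and 2 on the same side. The deposited log2 values placed 1 gene on opposite sides. Probes in the upper 60% of intensity gave 35 for the ICM, 17 for the TE, 7 on the same side and 3 on opposite sides, with fewer probes to adjust over. Without the replicate block the ICM gave 6. Fitting only the 6 arrays gave 5 for the ICM, 1 for the TE and 1 on the same side. The F2 test gave 13, 76, 59, 13 and 21. The mean over all probes of a gene gave 3 for the dissected parts and 10 for the TE. Counting every probe gave 16, 36, 17, 12 and 1, and requiring 2 called probes of a gene gave 0, 0 and 0. Leaving out each array gave 0 to 2, 0 to 1, 0 to 5, 0 to 1 and 0 to 0. Apart from fewer samples or probes, the causes were not tested. The fold minimum and Aquantile moved no count, and the position of the blastocyst stayed at 0.348 to 0.371. Of 406 values for single genes, 176 kept their side of the threshold, 226 lost the call, 4 gained it and none changed direction. The 4 gains were all of NANOG and SOX2 in the TE, which the main fit had not called. For each of these genes 14 of 14 values in the ICM and 12 of 14 in the TE stayed uncalled, and these count as kept. The share that kept a call is therefore smaller than 176 of 406. Only 2 arrays a group and 3 residual degrees of freedom limit what could be called.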
